A study of Mus musculus with 12 samples.

Results

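Egr1, Egr2, Egr3 and Egr4 are the mouse genes of the early growth response (EGR) family, and their transcripts were followed in striatal RNA of 12 mice. They are 4 of the 18193 genes with a probe set of their own on the array, and were chosen by family name, with earlier results of these arrays known, among them a lower mean signal of Egr2 in Q92 mice at 18 months. The comparison of genotypes at 18 months is therefore given as a description, with no test. All probe sets that the probe table of the array pairs with a member alone were used, which gave 6 of the 45037 probe sets tested, namely 1 for Egr1, 2 for Egr2, 2 for Egr3 and 1 for Egr4. No probe set (0) named a member together with another gene.

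The mice were C57BL/6 by their labels and formed 4 groups of 3, wild type at 3 months (100 to 103 days), Q92 at 3 months (100 to 103 days), wild type at 18 months (596 to 604 days) and Q92 at 18 months (567 to 596 days). Q92 mice are homozygous knock-ins (HdhQ92/Q92), in which 92 CAG repeats taken from the human gene of Huntington's disease replace part of the first exon of the mouse counterpart, now named Htt. The change is carried in the germ line, so all cells of Q92 mice hold it. Females numbered 1 of 3 in young wild type and 2 of 3 in each of the other groups. The tissue is whole striatum, a mixture of cells. Fewer cells of a type, less RNA per cell and a different share of neighbouring tissue cannot be told apart.

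EGR proteins are zinc finger transcription factors that bind a GC-rich DNA element. Their genes are immediate early genes: synaptic activity, dopamine and growth factors raise their transcripts within minutes through ERK kinases, the serum response factor SRF with its ETS partners of the Elk family, and CREB. Egr1 (also Zif268) has a high basal level in striatum and cortex and serves as a marker of neuronal activity, Egr2 (Krox20) also drives hindbrain patterning and myelination by Schwann cells, Egr3 also directs muscle spindle development, and Egr4 is the least studied member. The proteins NAB1 and NAB2 bind EGR1, EGR2 and EGR3 and repress them.

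Promoter sequence is shown for Egr2 and Egr4, because they are the 2 members of 4 matched in the RefSeq promoter table (build GRCm38.p6). Whether promoter elements bear on any difference between the groups was not tested. The 120 bases before a transcription start are printed 5′ to 3′ on the gene's strand, chr10:67537749-67537868 (plus strand) for Egr2 and chr6:85513590-85513709 (minus strand) for Egr4. Capitals mark CArG boxes, the element bound by SRF, and TGACG on either strand, the core of the CREB element.
Egr2: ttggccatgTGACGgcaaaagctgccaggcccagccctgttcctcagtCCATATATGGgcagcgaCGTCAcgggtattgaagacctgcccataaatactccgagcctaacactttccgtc
Egr4: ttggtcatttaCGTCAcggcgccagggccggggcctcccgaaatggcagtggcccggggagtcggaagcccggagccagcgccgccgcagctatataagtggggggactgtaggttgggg
The Egr2 window held 1 CArG box, beginning 72 bases before the start, and 2 matches of TGACG, beginning 111 and 55 bases before it. The Egr4 window held 1 match of TGACG, beginning 109 bases before the start, and 0 CArG boxes. The EGR element GCGTGGGCG was found 0 times in both. Among the same 120-base window of all 32851 entries of the table, 0.749% held a CArG box, 11.7% held TGACG on either strand, 0.0548% held both and 0.356% held GCGTGGGCG. The table lists 5 starts for Egr2, and 3 of these had a CArG box in the window. A match is a run of letters and not a measured binding site.

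All values are log2 signals, so that a difference of 1 is a doubling, and a gene's brightest probe set is the one with the highest mean over the 12 arrays. Correlations of an array with the other 11 averaged 0.987 to 0.992, and they were lowest in mouse wt_3m_467 (0.987) and mouse Q92_18m_66 (0.988), named by group and animal number. The 14 measured of 16 markers of striatal projection neurons had a median percentile of 98.6 among the mean signals of all probe sets, against 75.7 for 14 measured of 15 markers of cortical excitatory neurons and 50.7 for 6 choroid plexus markers. No marker is at 0 on such arrays, where every probe set has a positive background signal. Replicates were separate animals by their labels. The ages are also groups of different mice, and no mouse was followed over time. Age therefore cannot be told apart from other differences between those groups, such as handling before death or array run.

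Egr2 had the largest difference of the family and the same order of group means in both of its probe sets. At its brighter probe set, 1427683_at, it read 6.61, 5.04 and 5.76 in mice wt_3m_436, wt_3m_438 and wt_3m_467, and 5.83, 5.90 and 6.15 in mice Q92_3m_439, Q92_3m_440 and Q92_3m_466. At 18 months it read 5.04, 4.81 and 4.75 in mice wt_18m_9, wt_18m_12 and wt_18m_17, and 3.48, 4.39 and 3.70 in mice Q92_18m_11, Q92_18m_25 and Q92_18m_66. The other members are given in the same order of mice. All 6 older mice lay below all 6 younger mice, although the lowest young mouse (wt_3m_438) and the highest old one (wt_18m_9) differed only in the third decimal. The 3 old Q92 mice were the lowest of the 12. The dimmer probe set, 1427682_a_at, read 5.31, 4.25 and 4.85 in young wild type, 4.98, 5.10 and 5.21 in young Q92, 3.99, 4.06 and 4.10 in old wild type and 3.15, 3.75 and 3.73 in old Q92 mice, with the same separation of old from young and of old Q92 from old wild type.

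**Figure D1:**
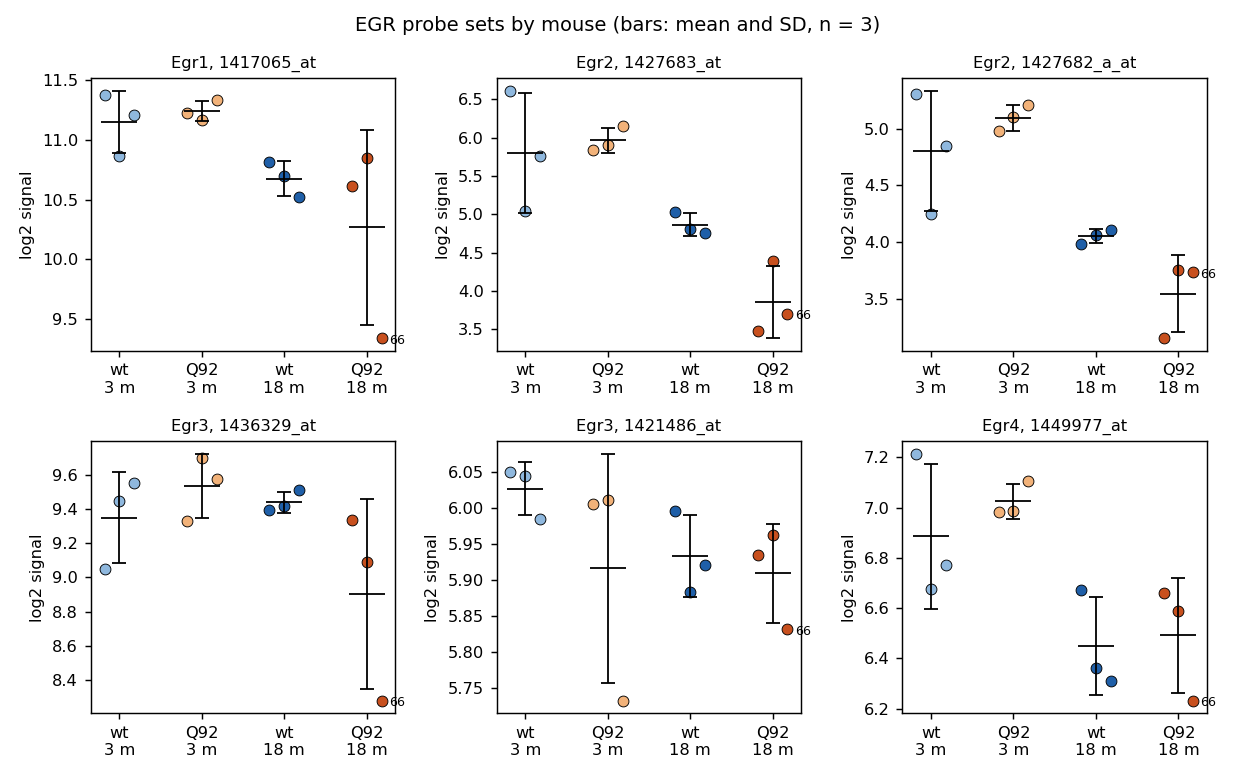
Log2 signal of the 6 EGR probe sets (y axis) in each mouse, by group (x axis, m for months), with bars for the mean and SD of 3 mice and mouse Q92_18m_66 marked 66. Both Egr2 panels step down from the young groups to wild type and then Q92 at 18 months, whereas in Egr1 and the brighter Egr3 probe set mouse Q92_18m_66 stands apart below.

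Egr2 in Q92 mice was 4.31-fold lower at 18 than at 3 months, at 3.86 ± 0.47 against 5.96 ± 0.17 (SD, n = 3 mice each). The log2 difference was -2.11 (SE 0.32, adjusted p = 0.0259 in limma over all probe sets). The fold is that of the array signals, and since Egr2 was dim in the old Q92 mice, where background is a larger part of a signal, it is no exact ratio of transcripts. The dimmer probe set was also lower at 18 months, at 3.55 ± 0.34 against 5.10 ± 0.11 (log2 difference -1.55, SE 0.22, adjusted p = 0.0217, limma). These were 2 of the 6 EGR probe sets, both of 1 gene, where 93 of 45037 probe sets (0.206%) passed in that comparison. Its 18-month arrays are those of the genotype comparison at 18 months, and Egr2 was known to be low on them when the family was chosen, so the p-values are not independent evidence.

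The age difference of Egr2 in Q92 varied little in size when each of the 6 Q92 arrays was left out in turn. It ran from -1.92 to -2.37 at 1427683_at and from -1.35 to -1.65 at 1427682_a_at. The call was less stable: without mouse Q92_3m_439, Q92_3m_440, Q92_3m_466, Q92_18m_11 or Q92_18m_66 neither probe set passed, with adjusted p of 0.0885, 0.123, 0.0666, 0.0901 and 0.0815 for the brighter one, and both passed without mouse Q92_18m_25 (0.0235). The 2 Egr2 probe sets had a Pearson r of 0.97 over the 12 arrays, which share groups and labelled RNA. In the old Q92 mice Egr2 was dim, at the 26.2 to 41.8 percentile of the probe sets of its array at 1427683_at and the 18.1 to 31.1 percentile at 1427682_a_at (percentile 0 is the dimmest).

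In wild-type mice Egr2 was lower at 18 than at 3 months by 0.94 on the log2 scale at 1427683_at (5.80 ± 0.78 against 4.87 ± 0.15, adjusted p = 0.349, limma) and by 0.75 at 1427682_a_at (adjusted p = 0.296), and neither passed. The value at 1427683_at was -0.53 without mouse wt_3m_436 and -1.32 without mouse wt_3m_438, and at 1427682_a_at it was -0.50 and -1.03. The young group held 2 males and 1 female against 1 male and 2 females at 18 months. Within males the age difference at 1427683_at was -1.38 (1 old and 2 young mice) and within females it was -0.15 (2 old and 1 young mouse). In Q92 mice it was -2.67 within males (1 against 1) and -1.83 within females (2 against 2).

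The mean of Egr2 was 2.01 times lower in Q92 than in wild-type mice at 18 months at 1427683_at (log2 difference -1.01, SE 0.32) and 1.42 times lower at 1427682_a_at (-0.51, SE 0.22). The groups did not overlap at either probe set. Among the mice aged 596 days, the 1 Q92 mouse (3.48) lay 1.30 below the mean of the 2 wild-type mice (4.78), and at 1427682_a_at the same difference was -0.93. Without mouse Q92_18m_11 the value at 1427682_a_at was -0.31. At 3 months Egr2 differed by 0.16 (SE 0.32, adjusted p = 1.00, limma) and by 0.29 (SE 0.22, adjusted p = 1.00), with overlapping groups, and at 1427683_at the sign turned (-0.22) without mouse wt_3m_438. The genotype difference at 18 months minus that at 3 months was -1.17 (SE 0.45) at 1427683_at and -0.80 (SE 0.31) at 1427682_a_at. That value contains the 18-month comparison known at the choice, so no p is given, and no test here shows a larger age difference in Q92 than in wild-type mice.

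Egr1 read 11.38, 10.87 and 11.21 in young wild type, and 11.23, 11.17 and 11.33 in young Q92 mice. In old wild type it read 10.81, 10.70 and 10.52, and in old Q92 mice it read 10.61, 10.85 and 9.34. As for Egr2, all 6 old mice were below all 6 young mice, narrowly for mice wt_3m_438 (10.87) and Q92_18m_25 (10.85). Mouse Q92_18m_66 stood far below the rest, and the other 2 Q92 mice lay within or just above the range of old wild type.

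Neither age difference of Egr1 passed. It was -0.97 in Q92 (SE 0.29, adjusted p = 0.235, limma) and -0.48 in wild type (SE 0.29, adjusted p = 0.590). Without mouse Q92_18m_66 the Q92 value was -0.51 (adjusted p = 0.287). The genotype difference at 18 months was -0.41 (SE 0.29) with all mice and 0.0556 without that mouse, and among the mice aged 596 days (1 Q92 and 2 wild-type mice) it was 0.00412. At 3 months it was 0.09 (SE 0.29, adjusted p = 1.00).

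Egr3 is measured by 2 probe sets that did not move together (Pearson r 0.19 over the 12 arrays). At the brighter one, 1436329_at, it read 9.05, 9.45 and 9.55 in young wild type, and 9.33, 9.70 and 9.58 in young Q92 mice. Old wild-type mice read 9.39, 9.42 and 9.51, and old Q92 mice read 9.34, 9.09 and 8.28. The old Q92 mice all lay below the old wild-type mice, narrowly for the nearest pair (9.34 and 9.39), and mouse Q92_18m_66 stood apart from the rest.

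The mean genotype difference of this Egr3 probe set at 18 months was -0.54 (SE 0.22), -0.23 without mouse Q92_18m_66 and -0.13 among the mice aged 596 days. Its age difference was -0.63 in Q92 (SE 0.22, adjusted p = 0.323, limma; -0.32 without mouse Q92_18m_66) and 0.09 in wild type (SE 0.22, adjusted p = 0.907; -0.0598 without mouse wt_3m_436). At 3 months the genotypes differed by 0.19 (SE 0.22, adjusted p = 1.00). At 1421486_at all 12 values lay between 5.73 and 6.05, and the 4 differences between groups ran from -0.11 to -0.01, with overlapping groups and adjusted p from 0.743 to 1.00 in the tested comparisons.

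Egr4 read 7.21, 6.67 and 6.77 in young wild type, and 6.98, 6.99 and 7.11 in young Q92 mice. In old wild type it read 6.67, 6.36 and 6.31, and in old Q92 mice it read 6.66, 6.59 and 6.23. All old mice were below all young mice, the nearest pair (wt_3m_438 and wt_18m_9) only in the third decimal, and the genotypes overlapped at both ages.

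The age difference of Egr4 was -0.44 in wild type (SE 0.16, adjusted p = 0.371, limma) and -0.53 in Q92 (SE 0.16, adjusted p = 0.221), and neither passed. Without mouse wt_3m_436 the wild-type value was -0.27. The genotype difference was 0.04 at 18 months (SE 0.16), with either sign when single arrays were left out (-0.0388 without mouse Q92_18m_11, 0.18 without mouse Q92_18m_66) and 0.32 among the mice aged 596 days. It was 0.14 at 3 months (SE 0.16, adjusted p = 1.00). The 18-month value minus that at 3 months was -0.09 (SE 0.22). Whether Egr2 and Egr4 differed from each other in any comparison was not tested.

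**Figure D2:**
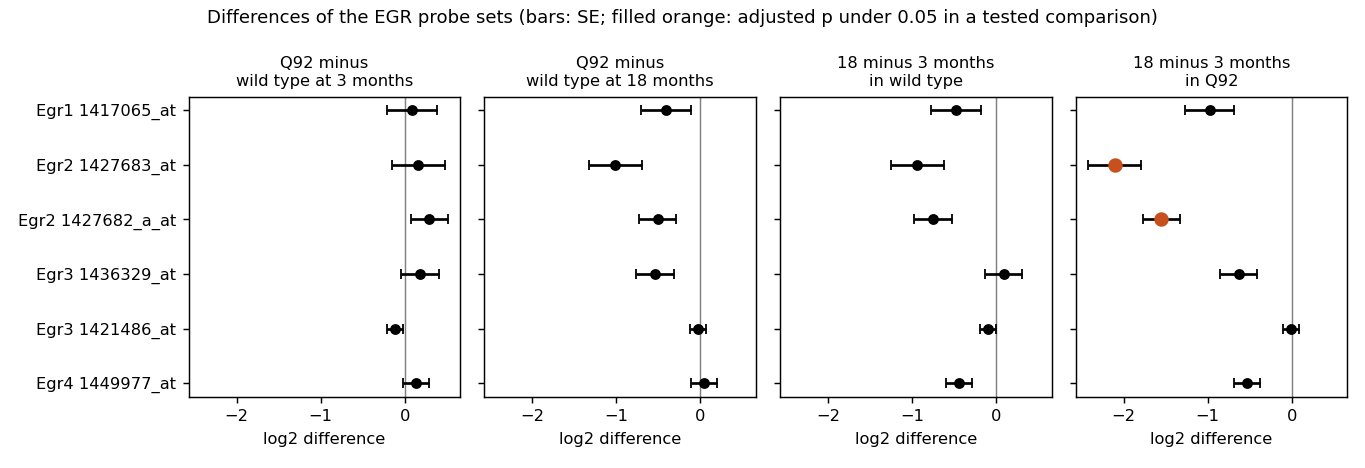
Log2 difference (x axis, bars are SE) of each EGR probe set (y axis) in 4 comparisons, with calls filled in orange. Only the 2 Egr2 probe sets are called, at -2.11 and -1.55 in Q92 mice between 3 and 18 months.

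Over the family, the number of EGR probe sets that passed was 2 of 6 for age in Q92, 0 of 6 for age in wild type (23 of all probe sets passed, 0.0511%) and 0 of 6 for genotype at 3 months (5 passed, 0.0111%). For genotype at 18 months 24 probe sets passed on the array (0.0533%), from which nothing is read here for the EGR genes. When genotype differences were compared between ages, limma called 0 probe sets of the array (0%), with 2335 at an unadjusted p under 0.05. The groups lay apart, older below younger, in 4 of 6 EGR probe sets in wild type, against 9.4% of all probe sets, and in 4 of 6 in Q92, against 7.62%. In both genotypes these were the probe sets of Egr1, Egr2 and Egr4. In wild type the margin between mice wt_3m_438 and wt_18m_9 was narrow for Egr1 (10.87 and 10.81). For Egr2 at 1427683_at and for Egr4 these mice differed only in the third decimal. Q92 lay wholly below wild type in 3 of 6 at 18 months, against 6.76%, and in 0 of 6 at 3 months, against 4.35%. At 18 months 2 of these 3 were of Egr2, known to be low when the family was chosen, so that count is a description only. The other was the brighter Egr3 probe set, apart by a narrow margin. The 2 probe sets of Egr2 are counted separately in these numbers, the age comparisons share no mouse, and each shares its 18-month arrays with the genotype comparison at 18 months. At 1 probe set per gene, the median log2 difference of the 4 EGR genes was -0.80 for age in Q92 and -0.46 for age in wild type, where all 18193 genes had medians of 0.00758 and -0.0107.

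Marker means of cell types also differed between mice, and not only in old Q92 mice. The cortical, the thalamic and pallidal, and the choroid plexus markers are taken as markers of tissue next to the striatum. The share of such tissue in each sample was not tested. The mean of the projection neuron markers, set to 0 at its average over all arrays, was -0.57, -0.38 and -1.05 in the 3 old Q92 mice in the order above and 0.0646 to 0.43 in the other 9 mice. All 14 of these markers had a lower mean signal in old than in young Q92 mice, and 5 of them passed. Of all 18193 genes, 8750 had a lower and 9443 a higher mean in that comparison, and 40 passed as lower. The cortical markers, on the same scale, stood at 0.75, 0.64 and -0.26 in the old Q92 mice and at -0.46 to 0.24 in the others, and 11 of 14 had a higher mean in old than in young Q92 mice (0 passed). A control probe set for 18S rRNA gave signals of 7.52, 6.21 and 8.31 in old Q92 mice, 5.64 to 5.75 in old wild type and 5.28 to 11.2 in the young mice. On the marker scale, choroid plexus markers were highest in mice Q92_3m_439 (2.24) and wt_18m_12 (2.01). Microglia markers were highest in mice wt_18m_17 (0.63) and Q92_18m_66 (0.55). The thalamic and pallidal neuron markers (10 of 10 measured) stood at -0.69, -0.46 and 0.93 in the old Q92 mice and at -0.53 to 0.56 in the others, with mouse Q92_18m_66 the highest of the 12. Egr1 and the brighter Egr3 probe set were lowest in that mouse, which also had the lowest projection neuron markers, while Egr2 was lowest in mouse Q92_18m_11, which had the highest cortical markers.

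**Figure D3:**
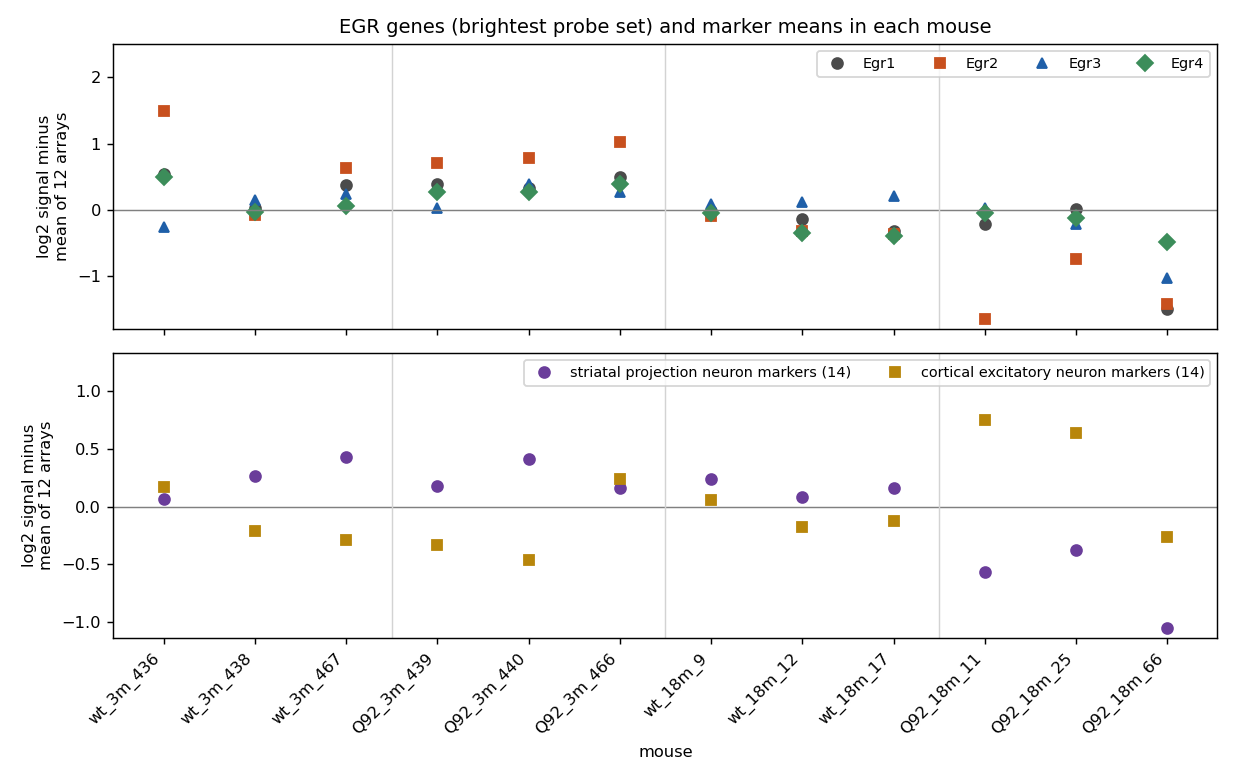
Log2 signal minus the mean of 12 arrays (y axes) in each mouse (x axis), above for the brightest probe set of each EGR gene and below for the means of 14 projection neuron and 14 cortical markers. In the old Q92 mice the projection neuron mean is at -0.57, -0.38 and -1.05, and Egr2 is low in all 3 of these mice, Egr1 and Egr3 mainly in mouse Q92_18m_66.

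With the cortical marker mean as a covariate, the age difference in Q92 was -2.41 for Egr2 at 1427683_at (adjusted p = 0.0424, limma), -1.56 at 1427682_a_at (adjusted p = 0.0662) and -1.53 for Egr1 (adjusted p = 0.0314). With the projection neuron mean as a covariate, chosen after results were seen, it was -2.10 for Egr2 at 1427683_at (adjusted p = 0.655), 0.34 for Egr1 (adjusted p = 0.933) and 0.57 for the brighter Egr3 probe set (adjusted p = 0.785). That covariate alone placed the 3 old Q92 mice below the other 9, and with it 0 probe sets of the array passed in this comparison (93 without it). Over all settings other than left-out arrays, adjusted p ran from 0.0202 to 0.655 at 1427683_at. Across these settings 0 to 195 probe sets of the array passed in this comparison. The array-wide count with the cortical covariate is not given here, so the Egr1 call is not set against it. The part of cell composition in the EGR differences was not otherwise tested.

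Genes around the family were taken from lists chosen with results of these data known. Of the NAB corepressor genes, Nab2, itself induced by EGR proteins, differed by -0.12 (adjusted p = 0.885, limma) with age in Q92 and Nab1 by 0.30 (adjusted p = 0.541), and in wild type by 0.05 (adjusted p = 0.946) and 0.31 (adjusted p = 0.517). Neither passed in any tested comparison.

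Among the ERK, SRF and CREB input genes, 14 of 21 were measured, and for age in Q92 0 passed, with a median of -0.01. The lowest was Rps6ka5, which encodes MSK1, a kinase of CREB and histone H3 downstream of ERK. Its age difference was -0.67 in Q92 (SE 0.13, adjusted p = 0.0611, limma) and -0.25 in wild type (adjusted p = 0.510), and its genotype difference at 18 months was -0.55. In the latter comparison Creb1 was at 0.34, the CREB coactivator gene Crtc1 at -0.31 and the activity-dependent factor gene Mef2c at 0.26. For age in wild type 1 of the 14 passed, and so did 13 of all 18193 genes. Elk3, which encodes an ETS partner of SRF that can repress, was higher at 18 months by 0.88 (SE 0.10, adjusted p = 0.0223, limma). Its age difference in Q92 was 0.21 (adjusted p = 0.523). The Elk3 call ended without mouse wt_3m_436 (adjusted p = 0.0715), wt_3m_467 (0.0821) or wt_18m_12 (0.0829), with sex as a covariate (0.0652), with the 18S rRNA signal as a covariate (0.0511) and with the 6 wild-type arrays fitted alone (0.121).

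The ERK feedback inhibitors, which dephosphorylate ERK or block its activation, had lower means in 9 of 9 genes for age in Q92, with a median of -0.32, and in 4 of 9 in wild type, with a median of 0.00. None (0 of 9) passed in either. Of all 18193 genes, 8750 had lower means for age in Q92 and 9588 in wild type. For genotype at 18 months the largest differences were -0.37 for the phosphatase gene Dusp1, -0.29 for the ERK phosphatase gene Dusp6, -0.26 for Spry1 and -0.24 for Spry2.

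Of 13 genes described as EGR targets, 11 were measured and 0 passed in a tested comparison, with medians of -0.12 for age in Q92 and 0.05 in wild type. The list does not separate activated from repressed targets, so its median has no set direction. At 18 months the genotype difference was -0.67 for the immunoproteasome subunit gene Psmb9 and -0.49 for Arc, a synaptic scaffold gene of the activity response. It was 0.39 for the synaptic vesicle gene Syn2 and -0.29 for Dlg4, which encodes PSD-95. These 4 had the largest differences of the list, and for Arc (SE 0.47) the groups overlapped. The Schwann cell list had 2 of 4 genes measured, Pmp22 and Gjb1, which oligodendrocytes also express. Their age differences in Q92 were 0.07 (adjusted p = 0.929, limma) and 0.19 (adjusted p = 0.774).

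The other activity-induced genes had 24 of 26 measured. Their median was -0.20 for age in Q92, with 16 of 24 lower, and -0.02 in wild type, with 13 of 24 lower, and 0 passed in either. Of all 18193 genes, 8750 were lower for age in Q92 and 9588 in wild type. The list mean, set to 0 at its average over all arrays, was -0.0523, 0.19 and -0.57 in mice Q92_18m_11, Q92_18m_25 and Q92_18m_66. The Q92 median was -0.38 to -0.0173 leaving out each Q92 array, and 0.17 with the projection neuron covariate. For age in Q92 the neuronal factor gene Npas4 was at -1.38 (SE 0.39, adjusted p = 0.210, limma), the nuclear receptor gene Nr4a1 at -1.02 (adjusted p = 0.466), Arc at -0.80 (adjusted p = 0.598), Fos at -0.57 (adjusted p = 0.683) and Junb at -0.54 (adjusted p = 0.422). The neurotrophin gene Bdnf lay the other way, at 0.71 (adjusted p = 0.507), and its genotype difference at 18 months was 0.55. Egr2, at -2.11, lay below every one of these 24 genes in this comparison, by the numbers and with no test of that difference.

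**Figure D4:**
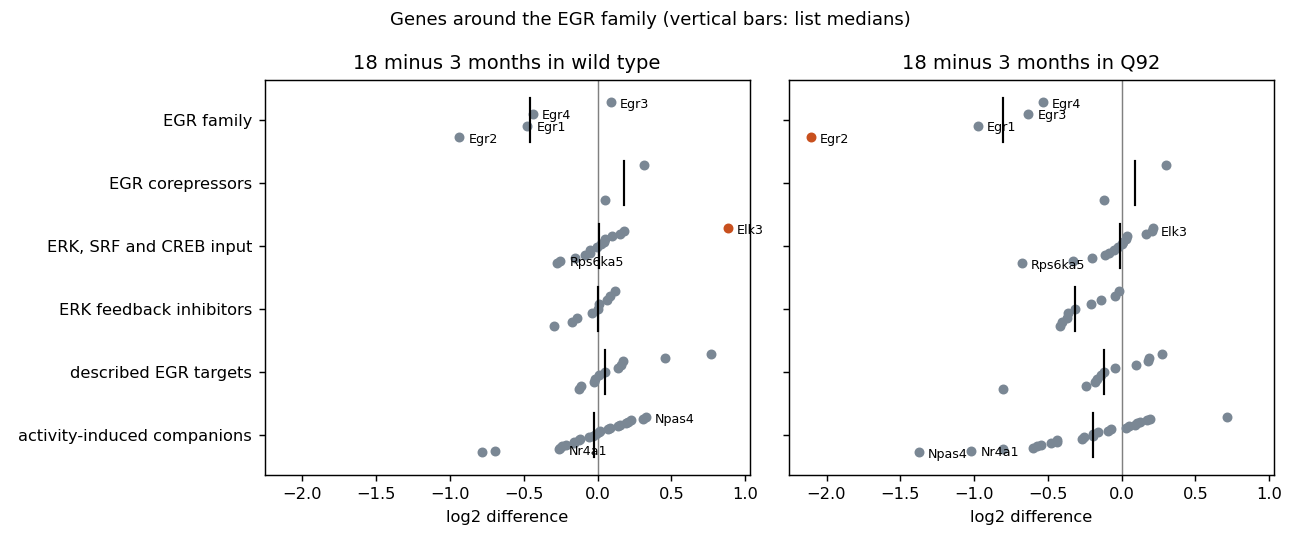
Log2 difference between 18 and 3 months (x axes) for genes of the lists around the EGR family (y axis), in wild-type (left) and Q92 mice (right), 1 point per gene, with vertical bars for list medians and calls in orange. Egr2 is called in Q92 at -2.11 and Elk3 in wild type at 0.88.

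The genes most like each member over the 12 arrays were ranked by Pearson r among 18193 genes at 1 probe set each, as a description. The arrays share groups, so such an r mixes group differences with spread within groups, and the r of deviations from group means is given beside it. For Egr1 the spread within groups was largest in old Q92 mice (SD 0.81, against 0.08 to 0.26 in the other groups). The brighter Egr3 probe set was alike (SD 0.55, against 0.06 to 0.27). In both, mouse Q92_18m_66 stood apart, so the r values of Egr1 and Egr3 weigh that mouse most. For Egr2 the order was Reep1 (0.92, and 0.73 within groups), Agtr1a (0.92 and 0.63), Marchf4 (0.92 and 0.63), Rnf8 (0.91 and 0.64) and Nrep (0.91 and 0.58). For Egr1 it was the calcium pump gene Atp2b1 (0.94 and 0.87), the actin nucleation gene Arpc2 (0.93 and 0.96), Ngef (0.93 and 0.87), Coro2b (0.93 and 0.91) and Bcl11b (0.92 and 0.90), a transcription factor of projection neurons. For Egr3 it was the potassium channel gene Kcnq5 (0.96 and 0.96), Skil (0.96 and 0.96), the calcium pump gene Atp2b2 (0.95 and 0.93), Dgkh (0.94 and 0.94) and Rasl10b (0.94 and 0.91). For Egr4 it was Tmem64 (0.92 and 0.98), Hexim1 (0.92 and 0.75), Evc (0.87 and 0.80), the AP-1 gene Fosl2 (0.87 and 0.90) and Frat2 (0.85 and 0.53).

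The members were not each other's nearest genes. Egr1 ranked 9 and Egr2 ranked 18 for Egr4, Egr4 ranked 65 and Egr1 ranked 76 for Egr2, and Egr2 ranked 1850 for Egr3. Within groups, Egr2 had an r of 0.92 with Fos, 0.87 with Arc, 0.84 with Npas4 and 0.83 with Nr4a1, 0.68 with Egr4, 0.47 with Egr1 and -0.24 with Egr3. Over all 12 arrays, without removing group means, Egr2 had an r of 0.62 with Fos, 0.69 with Arc, 0.76 with Npas4 and 0.79 with Nr4a1. The within-group values rest on 12 arrays in 4 groups of 3. For Egr2 they weigh young wild type most, where its SD at 1427683_at was 0.78, against 0.15 to 0.47 in the other groups.

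**Figure D5:**
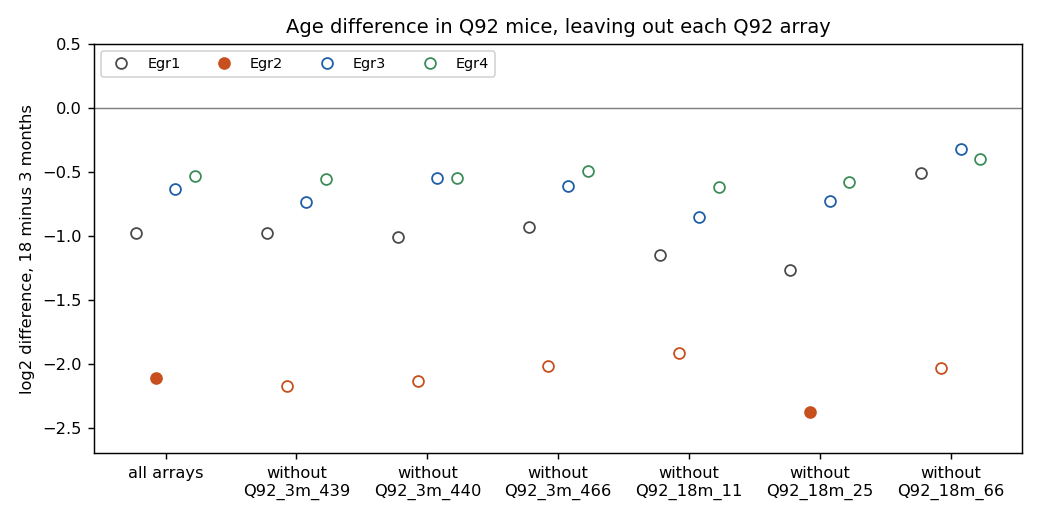
Log2 difference between 18 and 3 months in Q92 mice (y axis) for the brightest probe set of each EGR gene, with all arrays and without each Q92 array in turn (x axis). Filled points have an adjusted p under 0.05. Egr2 stays between -1.92 and -2.37 and is called with all arrays and without mouse Q92_18m_25, and Egr1 moves from -0.97 to -0.51 without mouse Q92_18m_66.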

How the data were processed

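Striatal total RNA of 12 mice was hybridised to Affymetrix Mouse Genome 430 2.0 arrays, 1 per mouse. Each probe set has a deposited log2 signal (2.03 to 13.8), for which the submitters' processing notes name RMA and the affy package, with no version. The sources used here do not say whether all 12 arrays were normalised as 1 set. RMA sets arrays to a common distribution, so each difference is relative to the other genes. Arrays give no read depth, and their number limits the precision.

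Gene names came from the series' probe table (34945 with 1 gene, 932 with several and 9160 with none). In limma 3.58.1 (R 4.3.3), 1 model with 4 group means took in all 12 arrays and 45037 probe sets, without 64 control probe sets, and p-values were adjusted by Benjamini-Hochberg within a comparison, with a threshold of 0.05. The fit was tested on simulated data. Sequences came from RefSeq tables of GRCm38.p6.

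The members, lists, tests and alternatives were chosen with earlier results of these data known. Named genes were the 4 members, Nab1 and Nab2, Fos, Junb, Npas4, Nr4a1 and Arc, up to 4 genes per list with the largest genotype difference at 18 months, list genes that passed a tested comparison, and the 5 genes most like each member.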

Additional observations from a re-analysis of the deposited data

How the results depend on the processing

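For age in Q92, 1 of the 4 genes passed at its brightest probe set, and the count was 0 to 1 when each array was left out in turn. It was 2 with the cortical marker covariate, 0 with the projection neuron covariate and 0 without both arrays of lowest mean correlation. Over such settings the calls of the whole array in that comparison also moved, from 0 to 195 probe sets (93 in the main fit). The 0 genes called for age in wild type and for genotype at 3 months stayed at 0 under all alternatives run. The median of the 4 genes for genotype at 18 months (-0.47) was -0.0619 with age in days as a block, -0.80 with the cortical covariate, 0.38 with the projection neuron covariate, -0.0854 without both arrays of lowest mean correlation (wt_3m_467 and Q92_18m_66), and -0.67 to -0.0854 leaving out each array. The median change of the genotype difference with age (-0.61) was -0.20, -0.995, 0.21, -0.29 and -0.81 to -0.22 in the same order. The projection neuron covariate turned Egr1 (0.34) and the brighter Egr3 probe set (0.57) for age in Q92. Egr3 at 1421486_at (-0.01) turned to 0.0282 with array weights, 0.00288 with the cortical covariate, 0.17 with the projection neuron covariate and 0.0323 without both arrays, and lay between -0.10 and 0.0406 leaving out each array. In the tested comparisons, leaving out each array turned 3 more: Egr1 (-0.0531 to 0.20) and Egr2 at 1427683_at (-0.22 to 0.56) for genotype at 3 months, and Egr3 at 1436329_at for age in wild type (-0.0598 to 0.19). In the comparisons given as descriptions, values that crossed 0 when each array was left out were those of Egr1 (-0.70 to 0.0556), Egr3 at 1421486_at (-0.0499 to 0.0151) and Egr4 (-0.0388 to 0.18) for genotype at 18 months, and of Egr3 at 1421486_at (-0.00500 to 0.13) and Egr4 (-0.26 to 0.0366) for the change with age. The cause of these shifts was not tested.

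With the mean of both probe sets, Egr2 differed by -1.83 with age in Q92 (adjusted p = 0.0133, limma). Over all probe sets the 93 calls for age in Q92 were 0 to 195 under other settings and 7 to 87 leaving out each array, the 23 for age in wild type were 0 to 45 and 0 to 23, the 24 for genotype at 18 months were 0 to 56 and 9 to 25, the 5 at 3 months were 1 to 5 and 1 to 4, and the 0 for the change with age were 0 to 3 and 0 to 3. The block for age in days could not be fitted to age comparisons. No pairing by animal was possible because the groups share no replicate numbers, so genotypes were matched only by age in days. At 18 months that block compares genotypes only among the mice aged 596 days, 1 Q92 and 2 wild-type mice.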
